A study of Rattus norvegicus with 6 samples.

Results

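The potassium channel genes of cultured vascular smooth muscle (VSM) cells from rat soleus feed arteries (SFA) were compared between young and old donors. The members were every row of the count table whose symbol begins with Kcn, the root given to potassium channel subunits and their regulators, together with any row for the sulfonylurea receptors Abcc8 and Abcc9. This gave 39 of the 14475 genes in the table. They were divided by role into 14 pore-forming voltage-gated subunits, 8 auxiliary subunits and regulators of voltage-gated channels, 5 genes of calcium- or sodium-activated channels, 6 inward rectifier genes with the sulfonylurea receptor Abcc9, and 6 two-pore genes. Membership rested on the symbol alone, among genes counted often enough to have a row. No symbol was given for 1518 genes of the table, which therefore could not be members. The set was chosen with earlier results of these data known.

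The SFA is the small artery that supplies the soleus, a postural muscle of the leg. VSM cells were grown from the SFA of male Fischer 344 rats in serum-containing medium, with 3 cultures from young rats (4 months) and 3 from old rats (24 months), and each culture gave 1 polyA-selected, stranded RNA-seq library. No genotype, transgene or drug distinguished the groups, so age was the only labeled difference, and both groups had left the vessel wall for a dish. The passage number is not given in the sources used here.

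Potassium channels set the resting potential of smooth muscle: when they open, potassium leaves the cell, the membrane hyperpolarizes, voltage-gated calcium channels close and the vessel relaxes. Voltage-gated channels and large-conductance calcium-activated (BK) channels oppose constriction as the membrane depolarizes, whereas inward rectifiers and two-pore channels act near rest. ATP-sensitive channels pair an inward rectifier pore with a sulfonylurea receptor. In culture, VSM cells are known to leave the contractile state, and their channel repertoire shifts with it.

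Total counts ranged from 44235674 to 59700887 per library, of which the 39 members together took 168 CPM (the count scaled by the size of the library) in young replicate 3 and 230 to 278 CPM in the other 5 libraries. A floor of 3 counts corresponded to 0.0499 to 0.0665 CPM, and such floors cover counting error only. Smooth muscle markers, all 7 of which had rows, were mostly Acta2 (7646 CPM in young and 1583 CPM in old on average) and Tagln (6147 and 2119 CPM). Des was low in both groups (1.98 and 1.84 CPM). The summed level of the 7 was lower in old libraries, 11180 to 20890 CPM in young and 3445 to 5553 CPM in old. The 7 fibroblast markers ran the other way, from 244.7 to 665.5 CPM in young and from 1094 to 1996 CPM in old libraries. Young replicate 3 had the highest smooth muscle sum and the lowest fibroblast sum. Summed markers of endothelial cells (4 of 7 with rows, 4.006 to 13.62 CPM in young and 12.66 to 18.15 CPM in old), macrophages (3 of 5, 5.129 to 15.97 and 10.37 to 16.76 CPM) and skeletal muscle (1 of 8, 0.3544 to 0.6317 and 0.3463 to 0.4291 CPM) were low. The endothelial marker Pecam1 averaged 0.525 CPM in young and 0.640 CPM in old libraries. Schwann and neuronal markers (4 of 8) summed to 35.9 to 91.67 CPM and 84.78 to 109.6 CPM, pericyte markers (4 of 5) to 950 to 1510 and 674.6 to 1526 CPM, and proliferation markers (4 of 4) to 261.1 to 432.8 and 54.65 to 303.3 CPM. Most of the pericyte sum was Pdgfrb (770.2 CPM in young and 963 CPM in old on average). The other pericyte markers averaged lower in old libraries, Mcam (89.2 and 7.19 CPM) and Cspg4 (319.8 and 121 CPM) being called by DESeq2 and Notch3 (32.1 and 4.51 CPM) overlapping. The part of these shifts in any result on the channel genes was not tested. In bulk RNA, fewer cells of a type and less RNA per cell cannot be told apart.

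Under DESeq2, the more permissive of the count tests used, channel genes differed between old and young libraries in both directions. Kcnmb4 and Kcnd3 were called lower in old, and Kcnj2, Kcnh1 and Kcnip4 higher. In the 6 fits that left out 1 library, DESeq2 kept the calls of Kcnmb4 and Kcnh1 in 6. It kept that of Kcnd3 in 5, of Kcnj2 in 3 and of Kcnip4 in 1. Kcnh2 was called lower too, but it reached the minimum of 10 counts in 3 libraries in the young group alone, as Kcnf1 did in the old group alone, so the filter on the table fixed the direction of these 2 genes. Kcnmb4 encodes an accessory subunit of the BK channel, Kcnh1 and Kcnh2 encode pores of the ether-a-go-go family, Kcnd3 a pore of the rapidly inactivating (A-type) current, Kcnip4 a calcium-binding partner of that pore, and Kcnj2 a strong inward rectifier. Of the 39 members, 15 had a lower fitted level in old libraries (38.5%, against 48.0% of all genes) and 24 a higher one. Log2 fold changes of old over young ran from -2.46 (Kcnmb4) to 2.85 (Kcnj15), with a median of 0.27 against 0.02 over all genes. That median rested on 1 library, since without young replicate 3 it was 0.01.

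A member was called when its adjusted p was under 0.05 and its absolute log2 fold change at least 1. The edgeR quasi-likelihood test called 0 of 39 members, with a lowest adjusted p of 0.0574, against 0.00691% of all genes (1 gene). At an unadjusted p under 0.05 edgeR placed 12 members apart, 4 lower in old (10.3%, against 11.5% of all genes) and 8 higher in old (20.5%, against 11.2%). DESeq2 called 6 members, 3 lower in old (7.69%, against 3.31% of all genes) and 3 higher (7.69%, against 2.25%), and limma-voom called 0 with 12 at an unadjusted p under 0.05. The 3 old libraries lay entirely below the 3 young libraries in 4 members (10.3%, against 14.7% of all genes) and entirely above them in 8 (20.5%, against 14.5%). The share of lower members was below that of all genes by the edgeR p and by non-overlap and above it by DESeq2, whereas the share of higher members was above that of all genes by each of the 3 counts, a description for which no test was made. Without Kcnh2 and Kcnf1, and without the other genes of the table listed through 1 group alone, 3 of 37 members were lower and 7 higher at an unadjusted edgeR p under 0.05 (8.11% and 18.9%, against 11.3% and 11.0% of 14384 genes). In the same genes DESeq2 called 2 members lower and 3 higher (5.41% and 8.11%, against 3.18% and 2.18%).

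**Figure D1:**
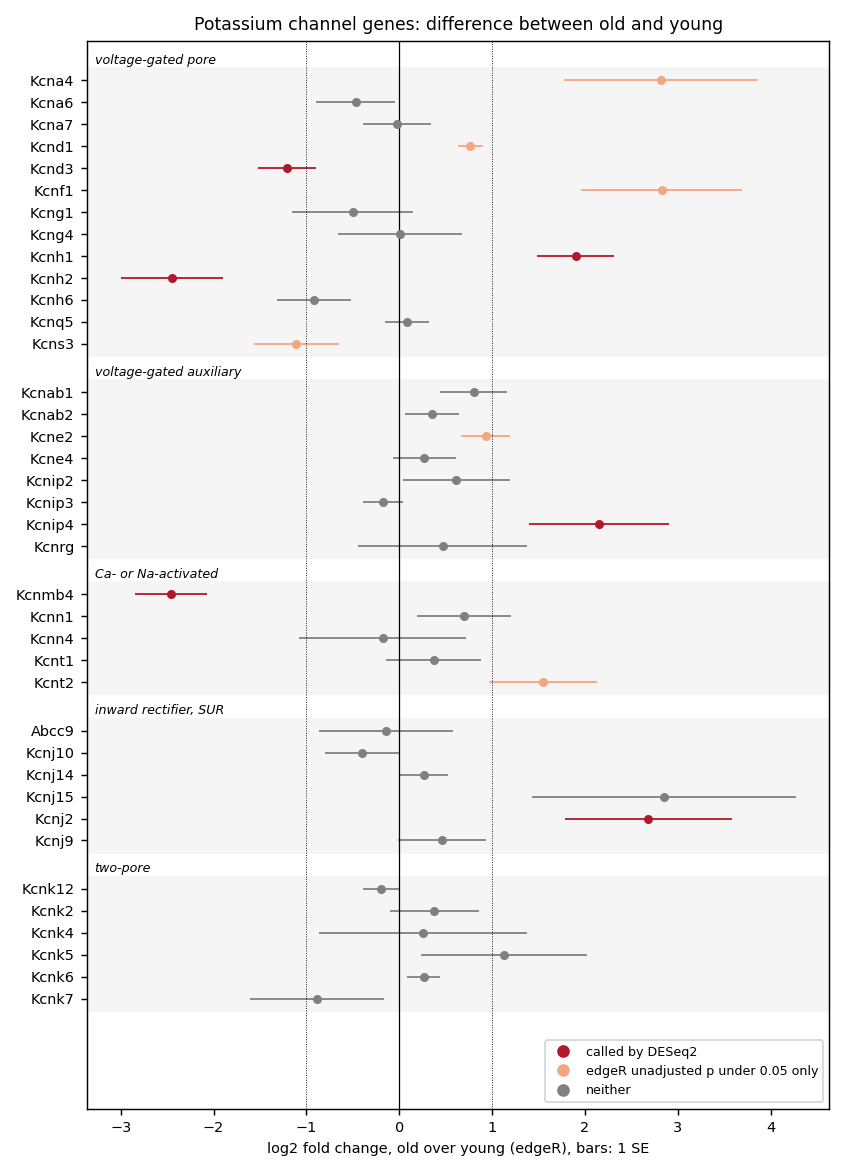
Fitted log2 fold change of old over young for 38 members, grouped by role, with bars of 1 standard error and dotted lines at the fold threshold. The 3 members that DESeq2 called lower (Kcnmb4, Kcnh2, Kcnd3) and the 3 it called higher (Kcnj2, Kcnip4, Kcnh1) are in dark red, and no two-pore gene is colored.

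Among the voltage-gated pores, the paired A-type genes went in opposite directions. Kcnd3, which encodes Kv4.3, measured 15.1, 20.5 and 36.0 CPM in young replicates 1 to 3 and 9.61, 11.1 and 10.3 CPM in old replicates 1 to 3. All old libraries lay below all young ones, and the young libraries were spread widely while the old ones were close together. Its mean was 23.9 ± 10.9 CPM (SD, n = 3) in young and 10.3 ± 0.727 CPM (n = 3) in old, 2.31-fold lower in old. The log2 fold change was -1.21 (SE 0.31), with an edgeR adjusted p of 0.115 and a DESeq2 adjusted p of 0.0066. Without young replicate 3, the highest library, the log2 fold change was -0.78 and the DESeq2 call was lost because the fold no longer reached the threshold. Kcnd1, which encodes Kv4.1, measured 21.1, 18.1 and 18.5 CPM in young and 29.1, 38.1 and 30.7 CPM in old libraries. Every old library was above every young library, and neither group held a library far from the rest. Its means of 19.3 ± 1.64 and 32.7 ± 4.78 CPM gave a 1.70-fold higher level in old (log2 fold change 0.76, SE 0.13, edgeR adjusted p = 0.0644, DESeq2 adjusted p = 0.000184), which was 0.64 to 0.84 on the log2 scale in the fits that left out 1 library and so stayed under the fold threshold. The count of Kcnd3 over that of Kcnd1 in the same library was 0.714, 1.13 and 1.95 in young and 0.330, 0.290 and 0.336 in old replicates 1 to 3. This ratio was chosen after its values were seen and carries no test. It is not corrected for transcript length, so only its change between libraries can be read.

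The ether-a-go-go genes were also split. Kcnh1 (Kv10.1) is a depolarization-gated pore best known from brain and from dividing cells. It measured 1.33, 1.11 and 0.651 CPM in young and 3.58, 5.56 and 2.43 CPM in old libraries. No old library reached down to the young range. The level was 3.73-fold higher in old, 3.85 ± 1.59 against 1.03 ± 0.346 CPM (n = 3 each), with a log2 fold change of 1.90 (SE 0.42), an edgeR adjusted p of 0.092 and a DESeq2 adjusted p of 0.000581. The DESeq2 call was kept in 6 of 6 fits that left out 1 library, with edgeR log2 fold changes of 1.54 to 2.15. Kcnh2 (Kv11.1), the rapid delayed rectifier known from the heart, was counted 14, 40 and 47 times in young and 8, 4 and 6 times in old libraries, or 0.310, 0.665 and 0.957 CPM against 0.161, 0.0770 and 0.112 CPM. The old libraries lay below the young ones and all 3 held fewer than 10 counts, so the gene was in the table through the young group alone and its direction was fixed by that filter. Its log2 fold change was -2.45 (SE 0.55, edgeR adjusted p = 0.0942, DESeq2 adjusted p = 0.00942), and DESeq2 kept the call in 3 of 6 fits that left out 1 library, losing it when replicate 2 or 3 of the young group or replicate 2 of the old group was left out. Kcnh6 (Kv11.2), the close relative of Kcnh2, was counted 12, 17 and 22 times in young and 11, 8 and 8 times in old libraries, without overlap, and had a log2 fold change of -0.92 (SE 0.40, edgeR adjusted p = 0.233).

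**Figure D2:**
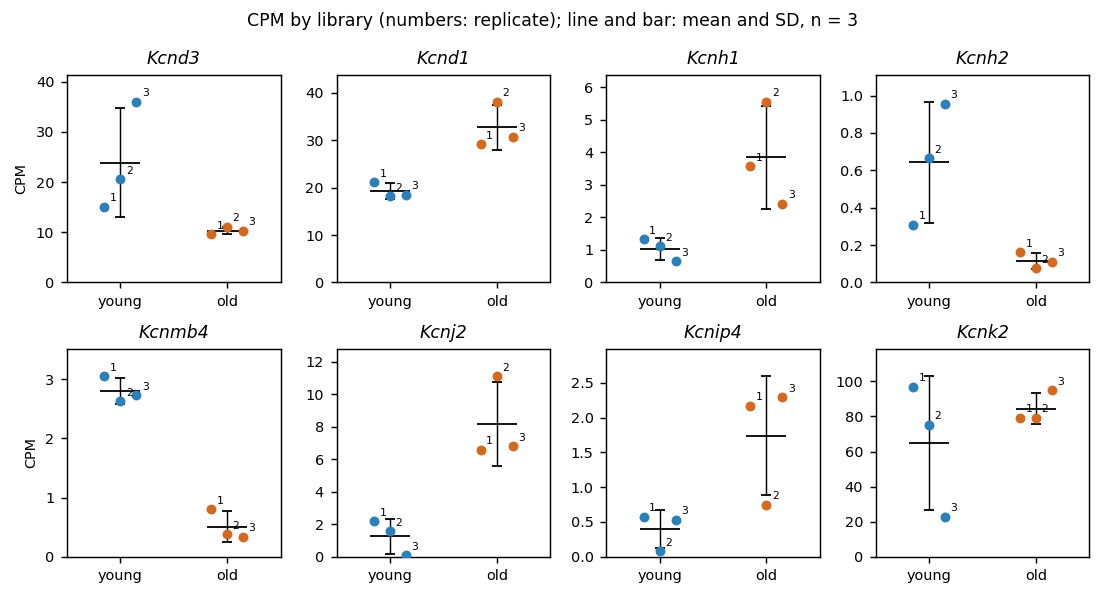
Level in CPM of 8 members by library (points, numbered by replicate), with a horizontal line at the mean and a bar of 1 SD for the 3 young and the 3 old libraries. Old libraries lie below young ones for Kcnd3, Kcnh2 and Kcnmb4 and above them for Kcnd1, Kcnh1, Kcnj2 and Kcnip4, while Kcnk2 overlaps, with young replicate 3 at 22.9 CPM.

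Other pores were low in young cultures and higher in old ones without passing either test. Kcna4 (Kv1.4), another A-type pore, had 2, 2 and 16 counts in young and 20, 24 and 106 counts in old libraries. Each group had its highest count in replicate 3, and the lowest old count was above the highest young one. The log2 fold change was 2.82 (SE 1.04, edgeR adjusted p = 0.190, DESeq2 adjusted p = 0.0689), and it was 1.69 without old replicate 3 and 4.55 without young replicate 3. Kcnf1 (Kv5.1) is a silent subunit, which forms no channel alone but modifies channels of other voltage-gated pores. It had 4, 0 and 4 counts in young and 22, 28 and 11 in old libraries (log2 fold change 2.82, SE 0.87, edgeR adjusted p = 0.146, DESeq2 adjusted p = 0.0583). It was in the table through the old group alone, which fixed its direction, and the size of the fold rests on very few young counts. Of the other silent subunits, Kcns3 (Kv9.3) measured 0.709, 1.10 and 0.550 CPM in young and 0.563, 0.269 and 0.261 CPM in old libraries. Its log2 fold change was -1.11 (SE 0.46, edgeR adjusted p = 0.219, with an unadjusted value of 0.0490) and a single old library, replicate 1, reached into the young range. Kcng1 (Kv6.1) and Kcng4 (Kv6.4) had log2 fold changes of -0.50 (SE 0.65) and 0.01 (SE 0.67) with edgeR adjusted p of 0.662 and 0.996.

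The pores with the remaining rows showed no difference that passed a test. Kcnq5 (Kv7.5), a slowly activating channel of arterial smooth muscle, measured 14.0, 8.91 and 9.95 CPM in young and 14.7, 10.2 and 9.78 CPM in old libraries. Replicate 1 was the highest in both groups and the ranges coincided. The log2 fold change was 0.08 (interval of 2 SE from -0.40 to 0.56, edgeR adjusted p = 0.859). Kcna6 (Kv1.6) and Kcna7 (Kv1.7), further members of the Shaker-related family, had log2 fold changes of -0.47 (SE 0.42, edgeR adjusted p = 0.527) and -0.03 (SE 0.36, edgeR adjusted p = 0.973). The 14 pores had a median log2 fold change of -0.25, 8 being lower (57.1%, against 48.0% of all genes) and 6 higher in old. But the median was -0.03 without young replicate 2, -0.42 without old replicate 3 and 0.0068 under the filter of 1 CPM in 3 libraries. At an unadjusted p under 0.05, 3 pores were lower (21.4%, against 11.5% of all genes) and 4 higher (28.6%, against 11.2%). DESeq2 called 2 lower (14.3%, against 3.31%) and 1 higher (7.14%, against 2.25%). Kcnh2 and Kcnf1 are among these counts.

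The auxiliary subunits of voltage-gated channels had a median log2 fold change of 0.54 (0.35 under the 1 CPM filter), with 7 of 8 above 0, as were 7534 of all 14475 genes. At an unadjusted p under 0.05, 2 were higher (25%, against 11.2% of all genes), and DESeq2 called 1 higher (12.5%, against 2.25%). The called gene was Kcnip4 (KChIP4), which measured 0.576, 0.0831 and 0.529 CPM in young and 2.17, 0.750 and 2.29 CPM in old libraries. Replicate 2 was the lowest in both groups, and every old library exceeded every young one. Its mean was 0.396 ± 0.272 CPM in young and 1.74 ± 0.858 CPM in old (log2 fold change 2.15, SE 0.75, edgeR adjusted p = 0.177, DESeq2 adjusted p = 0.0492). DESeq2 held this call in 1 of 6 fits that left out 1 library, the fit without old replicate 2. Kcne2 (MiRP1), a single-span subunit that associates with several voltage-gated pores, measured 0.731, 0.831 and 0.651 CPM in young and 1.53, 1.54 and 1.16 CPM in old libraries. The groups were well apart and each was narrow, with a log2 fold change of 0.93 (SE 0.26), an edgeR adjusted p of 0.130 and a DESeq2 adjusted p of 0.0395, and the fold missed the threshold.

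Kcnip3 (KChIP3), which also binds A-type pores, stood at 4.14, 4.32 and 5.07 CPM in young and 4.40, 3.10 and 4.50 CPM in old libraries, with overlap (log2 fold change -0.17, SE 0.22, edgeR adjusted p = 0.645). The log2 ratio of Kcnip3 to Kcnd1 was -2.09 ± 0.24 in young and -3.04 ± 0.50 in old (n = 3 each), a difference of -0.94, whereas its ratio to Kcnd3 was -2.31 ± 0.49 and -1.39 ± 0.39, a difference of 0.93. Both differences had p = 0.1 in an exact two-sided permutation test (adjusted p = 0.15 over 3 ratios). A p of 0.1 is the smallest that this test allows with 3 against 3 libraries. Of 13 planned ratios, 3 had both genes in the table and were tested. Both of the ratios above share Kcnip3, so they repeat the opposite directions of Kcnd1 and Kcnd3. The third ratio, of the inhibitory subunit Kcne4 to Kcnq5, differed by 0.21 (exact permutation p = 0.7). Kcne4 itself, which is known to reduce or alter currents through its partner pores, was at 41.0, 47.9 and 22.2 CPM in young and 38.0, 61.8 and 34.1 CPM in old libraries. Replicate 2 was the highest of each group, and the groups overlapped (log2 fold change 0.27, interval of 2 SE from -0.41 to 0.95, edgeR adjusted p = 0.652). The cytoplasmic beta subunit Kcnab1, which speeds inactivation of Shaker-type pores, measured 1.86, 0.964 and 1.36 CPM in young and 2.07, 1.89 and 3.32 CPM in old libraries, without overlap (log2 fold change 0.80, SE 0.36, edgeR adjusted p = 0.240). Its relative Kcnab2 (log2 fold change 0.35, SE 0.29), Kcnip2 (0.61, SE 0.57) and Kcnrg, a regulator of channel assembly (0.47, SE 0.91), had edgeR adjusted p from 0.494 to 0.777.

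**Figure D3:**
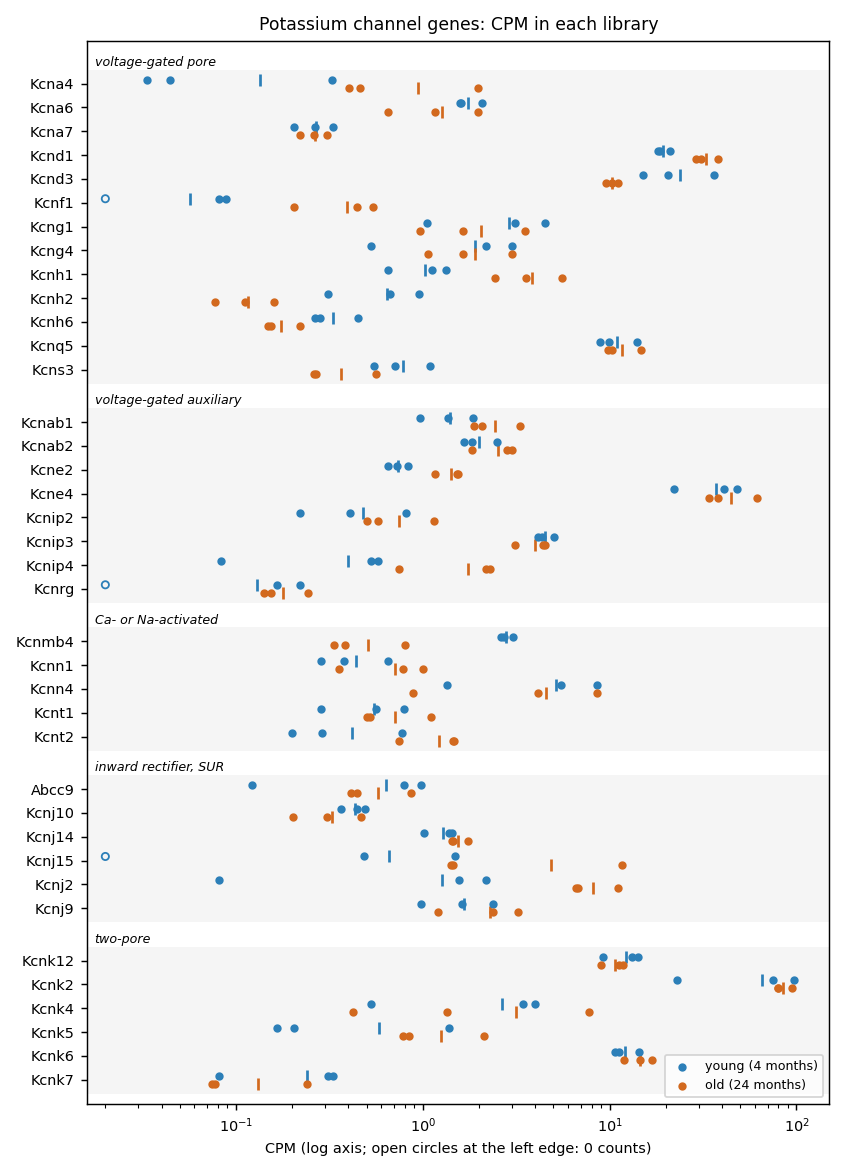
Level in CPM (log axis) of 38 members in every library, with blue points for the 3 young and orange points for the 3 old libraries, short vertical lines at group means and open circles for 0 counts. Kcnmb4 and Kcnj2 show a wide gap between the groups, and single libraries lie far from the rest for Kcnj15, Kcnk2 and Abcc9.

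Of the calcium- and sodium-activated group, Kcnmb4 gave the smallest p of all 39 members. Its product, the beta-4 subunit, alters the gating and the toxin sensitivity of the BK pore and is best known from neurons. It was counted 138, 158 and 134 times in young and 40, 20 and 18 times in old libraries, or 3.06, 2.63 and 2.73 CPM against 0.804, 0.385 and 0.336 CPM. The young libraries were tight, every old library lay far below them, and old replicate 1 was the highest of the old. The mean was 2.80 ± 0.225 CPM in young and 0.508 ± 0.257 CPM in old (SD, n = 3 each), 5.51-fold lower in old (a log2 fold change of -2.46, SE 0.39). The unadjusted edgeR p was 0.000559, the edgeR adjusted p 0.0574, the limma-voom adjusted p 0.0524 and the DESeq2 adjusted p 2.01e-07. DESeq2 called it in 6 of 6 fits that left out 1 library, with edgeR log2 fold changes of -2.95 to -2.23 in the same fits, and edgeR called it without old replicate 1 (adjusted p = 0.0262), a fit in which it called 732 genes. The BK pore Kcnma1 and the smooth muscle subunit Kcnmb1 were not analysed here, so the level of Kcnmb4 cannot be set against its channel.

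Kcnn4 (KCa3.1), the intermediate-conductance channel known from proliferating smooth muscle, measured 8.60, 1.35 and 5.50 CPM in young and 4.14, 0.885 and 8.60 CPM in old libraries. Replicate 2 was the lowest in both groups, and the libraries of each group differed by more than the groups did (log2 fold change -0.18, interval of 2 SE from -1.97 to 1.62, edgeR adjusted p = 0.919). The small-conductance gene Kcnn1 (SK1) had a log2 fold change of 0.69 (SE 0.51, edgeR adjusted p = 0.439). The sodium-activated genes Kcnt1 (Slack) and Kcnt2 (Slick) had log2 fold changes of 0.37 (SE 0.51, edgeR adjusted p = 0.682) and 1.54 (SE 0.58, adjusted p = 0.194). Kcnt2 was counted 13, 12 and 38 times in young and 72, 39 and 79 times in old libraries, and the groups overlapped in CPM, with young replicate 3 at 0.773 and old replicate 2 at 0.750.

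Among the inward rectifiers, Kcnj2 (Kir2.1), the strong rectifier that responds to external potassium in small arteries, was the member DESeq2 called. It was counted 98, 94 and 4 times in young and 328, 578 and 364 times in old libraries, or 2.17, 1.56 and 0.0814 CPM against 6.59, 11.1 and 6.79 CPM. All 3 old libraries were above the young ones, and young replicate 3 stood at 0.0436 times the mean of the other young libraries, close to its floor of 0.0611 CPM. The mean was 1.27 ± 1.07 CPM in young and 8.17 ± 2.56 CPM in old, 6.42-fold higher, with a log2 fold change of 2.68 (SE 0.90), an edgeR adjusted p of 0.168 and a DESeq2 adjusted p of 0.0181. Without young replicate 3 the log2 fold change was 2.13 and DESeq2 still called it (adjusted p = 1.27e-06). The call was lost in 3 of 6 such fits, those that left out replicate 2 of either group or replicate 3 of the old group, in which the DESeq2 adjusted p ran from 0.0719 to 0.153.

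Kcnj15 (Kir4.2) had the highest log2 fold change of any member and rested on 1 library. Its counts were 22, 90 and 0 in young and 72, 74 and 624 in old libraries, so that old replicate 3 alone exceeded the highest young library and the other old libraries did not. The log2 fold change of 2.85 (SE 1.42, edgeR adjusted p = 0.280) was 1.10 without old replicate 3. The sulfonylurea receptor Abcc9 (SUR2), the regulatory subunit of vascular ATP-sensitive channels, measured 0.975, 0.798 and 0.122 CPM in young and 0.442, 0.866 and 0.410 CPM in old libraries, with young replicate 3 the lowest of all 6. Its log2 fold change was -0.14 (interval of 2 SE from -1.59 to 1.30, edgeR adjusted p = 0.920), an interval too wide to place the receptor. The sign turned to positive under limma-voom (0.21), and in the fits that left out 1 library the value ran from -0.63 to 0.30. The other receptor, Abcc8, and the pores Kcnj8 and Kcnj11 were not analysed here. Kcnj9 (GIRK3, log2 fold change 0.46, SE 0.47), Kcnj10 (Kir4.1, -0.40, SE 0.40) and Kcnj14 (Kir2.4, 0.27, SE 0.26) overlapped between groups, with edgeR adjusted p from 0.546 to 0.574. Kcnj9 overlaps the coding gene Igsf8 in the RefSeq annotation of GRCr8, as Kcnab2 does Nphp4 and as Kcnk2 and Kcnk6 do unnamed coding loci, and the strand setting of the counting is not given in the sources used here.

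None of the 6 two-pore genes had an unadjusted edgeR p under 0.05, against 11.5% of all genes lower and 11.2% higher. DESeq2 called 0 of them with all libraries, against 3.31% lower and 2.25% higher. In a group of 6 genes such counts say little. Kcnk2 (TREK-1), which opens with membrane stretch and lipids, measured 97.0, 75.2 and 22.9 CPM in young and 79.4, 79.2 and 95.0 CPM in old libraries. Only young replicate 3 stood apart, at 0.266 times the mean of the other young libraries. The log2 fold change was 0.38 (interval of 2 SE from -0.57 to 1.33, edgeR adjusted p = 0.649) with all libraries and -0.03 without young replicate 3. Kcnk6 (TWIK-2), a weak inward-rectifying leak channel, measured 10.7, 11.2 and 14.3 CPM in young and 14.6, 11.9 and 16.8 CPM in old libraries, and Kcnk12 (THIK-2), a pore that is silent or nearly so alone, averaged 12.2 ± 2.60 and 10.7 ± 1.46 CPM. Their 2-SE intervals, from -0.10 to 0.62 for Kcnk6 and from -0.59 to 0.21 for Kcnk12, lay within 1 log2 unit of no change in both directions. The other stretch-gated member, Kcnk4 (TRAAK), measured 3.99, 3.44 and 0.529 CPM in young and 0.422, 7.71 and 1.34 CPM in old libraries. Low and high values occurred in both groups, and its SE of 1.12 around a log2 fold change of 0.25 left it unplaced (edgeR adjusted p = 0.908). Kcnk5 (TASK-2, log2 fold change 1.13, SE 0.89) and Kcnk7 (-0.89, SE 0.72) had edgeR adjusted p of 0.471 and 0.481. Their 2-SE intervals, from -0.66 to 2.91 and from -2.32 to 0.55, left them unplaced. DESeq2 called Kcnk5 in the fit without young replicate 1.

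**Figure D4:**
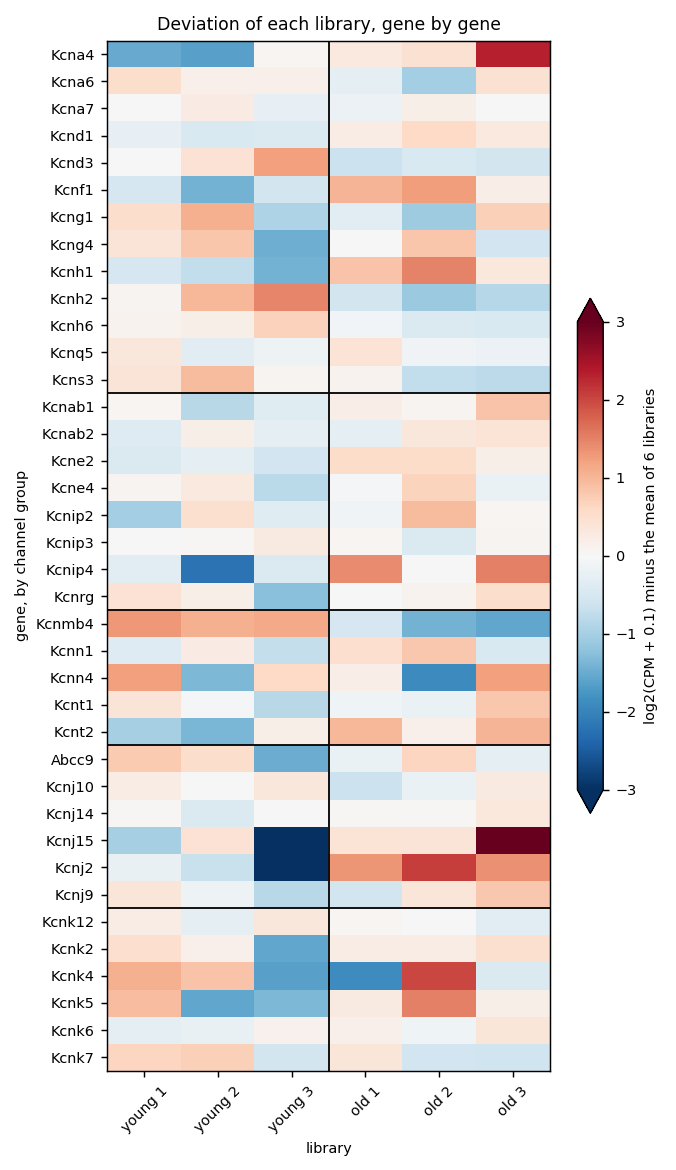
Deviation of log2(CPM + 0.1) from the mean of the 6 libraries for 38 members (rows, grouped by role with black lines) and library (columns), in red above and blue below that mean. Kcnmb4 is red in 3 young and blue in 3 old libraries, Kcnj2 is the reverse, and the column of young replicate 3 holds the deepest blue cells, for Kcnj15 and Kcnj2.

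Much of the spread among the members was between libraries of 1 group. The median coefficient of variation was 45.5% in young and 41.1% in old libraries over the 39 members, against 11.8% and 16.8% over all genes. Among the 23 members above 1 CPM it was 33.6% and 32.2%, against 9.94% and 14.6% for the 12257 genes of the table above that level. The sets were not matched on level, since mean levels reached 74.8 CPM in members and 24654 CPM over all genes. Young replicate 2 was the lowest of all 6 libraries for 9 of 39 members (23.1%, against 10.7% of all genes). Old replicate 2 was the highest for 11 (28.2%, against 19%) and old replicate 3 for 12 (30.8%, against 23.9%). Young replicate 3 was the lowest for 13 of 39 members (33.3%, against 22.8% of all genes). Kcnj15 and Kcnrg had 0 counts in it, and Kcnj2, Abcc9 and Kcnk4 were at 0.0436, 0.138 and 0.142 times the mean of young replicates 1 and 2. Others were raised in it, among them Kcna4 (8.40 times), Kcnt2 (3.17), Kcnd3 (2.02) and Kcnh2 (1.96). Whether the state of that culture, which also held the highest smooth muscle sum, had a part in these values was not tested.

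**Figure D5:**
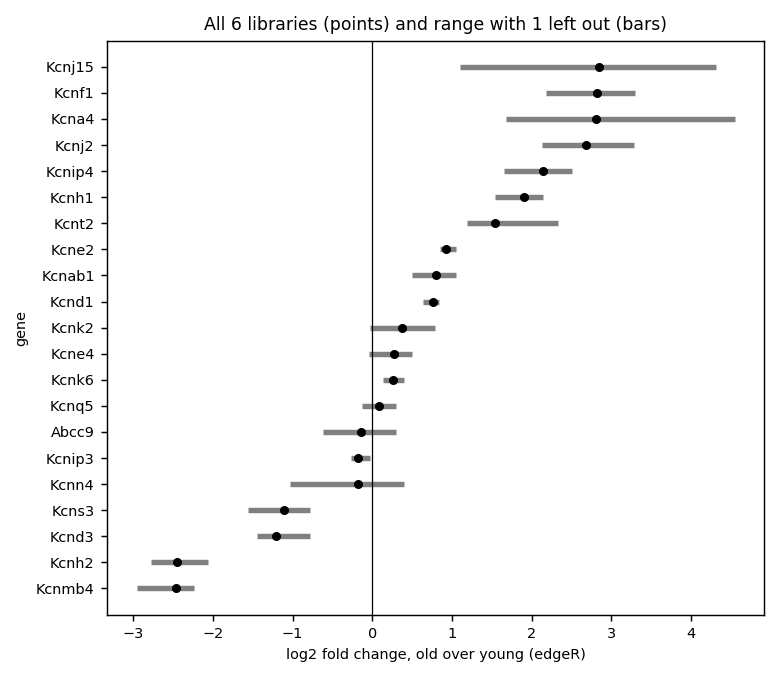
Log2 fold change of old over young for 21 members described one by one under the naming rule, with points for all 6 libraries and bars from the lowest to the highest value when 1 library was left out. The bars of Kcnn4, Abcc9, Kcnq5, Kcne4 and Kcnk2 cross 0, and those of Kcnmb4 (-2.95 to -2.23) and Kcnh1 (1.54 to 2.15) do not.

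To show the sequence context of genes called by DESeq2, the promoters of Kcnmb4, Kcnd3, Kcnj2 and Kcnh1 are printed from RefSeq (assembly GRCr8), 250 bases before to 50 after the start of the gene and 5′ to 3′ on the strand of the gene. The positions are chr7:54005052-54005351 (minus strand) for Kcnmb4, chr2:195626066-195626365 (plus strand) for Kcnd3, chr10:96559975-96560274 (plus strand) for Kcnj2 and chr13:106252966-106253265 (plus strand) for Kcnh1. Capitals mark GC boxes (GGGCGG on either strand).
Kcnmb4: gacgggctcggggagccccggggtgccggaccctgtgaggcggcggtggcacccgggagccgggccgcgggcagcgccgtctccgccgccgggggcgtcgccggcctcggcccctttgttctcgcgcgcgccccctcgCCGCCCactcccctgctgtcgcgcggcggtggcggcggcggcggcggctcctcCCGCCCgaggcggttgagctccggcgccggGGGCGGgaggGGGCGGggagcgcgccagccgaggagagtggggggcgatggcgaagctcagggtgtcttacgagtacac
Kcnd3: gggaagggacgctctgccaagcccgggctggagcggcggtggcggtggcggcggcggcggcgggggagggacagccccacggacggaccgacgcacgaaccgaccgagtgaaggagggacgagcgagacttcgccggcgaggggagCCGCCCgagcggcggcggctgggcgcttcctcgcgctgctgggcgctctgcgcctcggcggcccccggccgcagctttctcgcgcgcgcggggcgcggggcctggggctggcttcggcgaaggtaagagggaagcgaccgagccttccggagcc
Kcnj2: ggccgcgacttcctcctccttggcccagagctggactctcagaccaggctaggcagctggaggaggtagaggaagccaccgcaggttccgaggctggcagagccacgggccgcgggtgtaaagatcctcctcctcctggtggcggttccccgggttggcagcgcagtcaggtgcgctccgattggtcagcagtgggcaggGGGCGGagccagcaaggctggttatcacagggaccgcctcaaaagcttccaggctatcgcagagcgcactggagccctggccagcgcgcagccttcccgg
Kcnh1: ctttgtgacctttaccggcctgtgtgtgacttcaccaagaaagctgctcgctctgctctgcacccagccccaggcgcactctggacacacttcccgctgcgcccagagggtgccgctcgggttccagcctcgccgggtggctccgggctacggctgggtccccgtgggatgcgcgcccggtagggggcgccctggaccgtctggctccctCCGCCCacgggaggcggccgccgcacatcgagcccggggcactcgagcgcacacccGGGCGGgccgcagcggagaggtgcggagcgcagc
The Kcnmb4 promoter held 4 GC boxes and was 80.7% G or C, that of Kcnd3 held 1 (77.7%), that of Kcnj2 held 1 (67%) and that of Kcnh1 held 2 (72.7%). CpG pairs numbered 48 in Kcnmb4, 48 in Kcnd3, 19 in Kcnj2 and 32 in Kcnh1, so the promoter of the inward rectifier was the poorest in them. A GC box was found in 18 of the 30 promoters of the 27 members with an entry (60%), in 33.1% of all 33469 rat promoters and in 59.7% of the 12022 promoters of genes in the count table. The TATA box letters TATAAA, searched on both strands, were in 0 member promoters, 14.2% of all promoters and 7.14% of those of counted genes. E boxes (CANNTG) were in 70% of member promoters, 72.1% of all promoters and 63.5% of those of counted genes. The CArG box, the site of serum response factor in contractile genes, was in 0 member promoters, 1.64% of all and 1.3% of those of counted genes. The letters of a motif in a promoter are a description, not a site of binding, and those of the members were as frequent as in counted genes for the GC box.

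The genes that act with these channels were listed by role: anchors and regulators of channels, calcium sources, kinases, pumps and cotransporters, and other conductances. Of 54 listed genes 41 had rows. In old libraries 28 were lower (68.3%, against 48.0% of all genes) and 13 higher. Their median log2 fold change was -0.16, and edgeR called 0 of them. At an unadjusted edgeR p under 0.05, 9 were lower (22%, against 11.5% of all genes) and 3 higher (7.32%, against 11.2%). DESeq2 called 2 lower (4.88%, against 3.31%) and 1 higher (2.44%, against 2.25%). Akap5, the anchor that holds kinases and calcineurin beside channels, measured 64.2, 99.4 and 26.1 CPM in young and 11.5, 16.7 and 2.24 CPM in old libraries. DESeq2 called it lower (log2 fold change -2.64, SE 0.79, edgeR adjusted p = 0.141, DESeq2 adjusted p = 0.00277). Itpr1 and Itpr3, both calcium release channels of the endoplasmic reticulum, went apart. Itpr1 averaged 292 ± 145 CPM in young and 119 ± 45.5 CPM in old libraries and was called lower by DESeq2 (log2 fold change -1.30, SE 0.42, edgeR adjusted p = 0.161, DESeq2 adjusted p = 0.0225). Itpr3 averaged 45.9 ± 5.65 and 96.0 ± 9.46 CPM and was called higher by DESeq2 (log2 fold change 1.06, SE 0.13, edgeR adjusted p = 0.0531, DESeq2 adjusted p = 2.10e-09). Cacna1c, the pore of the L-type calcium channel that potassium channels hold closed, averaged 56.7 ± 12.7 CPM in young and 39.3 ± 1.14 CPM in old libraries without overlap (log2 fold change -0.53, SE 0.16, edgeR adjusted p = 0.145). Jph2, which ties the cell membrane to calcium stores, averaged 210.4 ± 12.7 and 114 ± 30.6 CPM (log2 fold change -0.89, SE 0.20, edgeR adjusted p = 0.0948). None of the 8 pumps and cotransporters or the 6 kinases had an unadjusted p under 0.05.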

How the data were processed

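Total RNA of the 6 cultures (3 young, 3 old) was sequenced as stranded, paired-end mRNA libraries. The authors deposited raw, unnormalized counts as 1 table of whole numbers. Their reads were trimmed with Trim Galore 0.6.7 (cutadapt 3.5), aligned with STAR 2.7.10b to Rnor 6.0 and counted with featureCounts (Subread 2.0.8). Which annotation was counted is unclear, since the methods name RefSeq and the table holds Ensembl identifiers. Tools and versions are those in the submitters' processing notes. In each of the 14475 genes 3 or more libraries reached 10 counts, so a member could be listed through 1 group alone. All 39 members passed, 4 of them with exactly 3 libraries at 10 counts (Kcnk7, Kcnh2, Kcnf1 and Kcnrg), of which Kcnh2 entered through the young and Kcnf1 through the old group alone. Low counts, from 1 to 19, were even in 68.7% to 71.1% of cases, so mates may have been counted separately and counting error may exceed what the counts imply.

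The main test on the counts was that of edgeR 4.0.16 in R 4.3.3 (quasi-likelihood F test after TMM scaling, Benjamini-Hochberg adjustment over 14475 genes, no covariates). Fold changes are old over young, and a call needed an adjusted p below 0.05 with a log2 fold change of 1 or more in size. The standard error is the absolute log2 fold change over the square root of F. The authors' own test, DESeq2 (here 1.42.0), and limma-voom (limma 3.58.1) were alternatives, as were other scalings, a 1 CPM filter, counts divided by 2, a replicate block and leaving out each library. CPM were computed from TMM-scaled library totals without transcript length, so levels are not compared between genes. Ratios of 2 members were log2 with 0.5 added to each count. The scripts were checked on simulated counts.

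Replicates are separate samples in the labels, and the study gives 3 rats per group. The members, gene lists and the naming rule were chosen with earlier results of these data known. The rule took members called by DESeq2 or edgeR, those at an unadjusted edgeR p under 0.05, the 2 most counted of each role and 9 members from a list of 20 vascular channel genes, 22 in all. Other members are given by their values alone. Counts and medians cover all 39 members, but the values of 1 of the 22, which the figures also omit, and of 1 listed partner gene are not reported here. Promoters and gene overlaps came from RefSeq tables of GRCr8, and no coordinate of Rnor 6.0 was converted.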

Additional observations from a re-analysis of the deposited data

How the results depend on the processing

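The count of members called by edgeR was 0 with all libraries and 0 to 1 with 1 library left out (1, Kcnmb4, without old replicate 1), 6 under DESeq2 and 3 at an adjusted p under 0.1. The count at an unadjusted p under 0.05 was 12, and 6 under the filter of at least 1 CPM in 3 libraries, which kept 22 of the 39 members and so tested fewer. DESeq2 called 6 members, and 3 (without young replicate 2) to 7 (without old replicate 1) with 1 library left out. The genes called changed too, and only Kcnmb4 and Kcnh1 were called in each of these fits. Kcnk5, Kcnt2, Kcna4, Kcns3 and Kcne2 were called in some of them but not with all libraries. The leave-one-out and block fits of DESeq2 were added after seeing the data. The median log2 fold change of the members ran from 0.0066 (without young replicate 3) to 0.45 (without young replicate 2). Among the 22 members under the naming rule, the direction of 5 reversed with 1 library left out. The ranges were -1.03 to 0.40 for Kcnn4, -0.63 to 0.30 for Abcc9 and -0.026 to 0.78 for Kcnk2. Those of Kcne4 and Kcnq5 were -0.040 to 0.50 and -0.13 to 0.29. The directions of members outside the rule were not examined in this way, though the counts of calls cover them. Abcc9 also reversed under limma-voom (0.21). The cause was not tested.

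Deviations of same-numbered young and old libraries correlated at 0.0632, 0.322 and 0.313, and those of differently numbered libraries at -0.455 to 0.354. The deviations were taken from the mean of 3 libraries per group, so these values cannot settle whether same-numbered samples share more than a number. With the replicate block the count at an unadjusted p under 0.05 was 11, DESeq2 called 7 but no longer Kcnh2 (adjusted p = 0.0599), the member median was 0.28 and Abcc9 stood at 0.12. Low counts limit Kcnh2, Kcnf1, Kcna4, Kcnk7 and Kcnrg most.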
